A study of Mus musculus with 9 samples.

Results

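The 10 genes described here encode enzymes that build or take apart triglyceride in the liver: Gpam, Agpat2, Agpat3, Lpin1, Lpin2, Dgat1, Dgat2, Mogat1, Gpd1 and Mgll. They were taken by name, as every non-control probe that the array annotation assigns to one of them, which gave 25 probes of the 56605 non-control probes for 37074 gene names. Liver RNA of male C57BL/6N mice was measured on 9 Agilent arrays in 1 colour, 3 for each of 3 groups, with probes of 60 bases. AAV-V mice received a hepatocyte-specific adeno-associated virus with an empty vector and a regular diet, AAV-GP73 mice received the virus with GP73 and a regular diet, and AAV-V HFD mice received the empty vector and a high-fat diet (HFD). The livers were taken 12 months after injection, while the labels give 12 months as the age of every mouse. The duration of the HFD is described in more than 1 way, and whether an array holds 1 mouse or a pool is not stated, so that the p-values measure the spread between these arrays.

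Triglyceride is assembled on a glycerol backbone. Gpd1 reduces dihydroxyacetone phosphate to glycerol 3-phosphate, Gpam attaches the first fatty acid, the Agpat enzymes attach the next and so make phosphatidate, and the lipins remove the phosphate to leave diacylglycerol. The Dgat enzymes add the last fatty acid, and Mogat1 reaches diacylglycerol from monoacylglycerol. Mgll works in the opposite direction, since it splits monoacylglycerol into glycerol and a fatty acid, so that the name of the group covers 1 hydrolase beside the synthetic enzymes. In the liver the finished triglyceride is stored in lipid droplets or leaves the cell in very-low-density lipoprotein.

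The arrays set a limit on what could be seen of these genes. Of the 59305 non-control spots, the AAV-V arrays detected (well above background) 10.2% to 10.7%, the AAV-GP73 arrays 16.0% to 18.4% and the AAV-V HFD arrays 13.8% to 16.7%. A set of 2667 probes was detected everywhere. The median of their processed signals reached 35.7 ± 2.83 (SD, n = 3) in AAV-V, 113 ± 14.1 (SD, n = 3) in AAV-GP73 and 105 ± 25.2 (SD, n = 3) in AAV-V HFD. All values below are log2 signals scaled to the 75th percentile of those 2667 probes. On that scale the detection limit, the lowest signal well above background of an array, was 3.77 to 3.94 for AAV-V, 1.85 to 2.49 for AAV-GP73 and 2.04 to 2.81 for AAV-V HFD, so that the same scaled level could be detected in the treated groups and missed in AAV-V. The HFD arrays had a slide to themselves, while the regular-diet arrays shared 1, and diet and slide therefore cannot be told apart. Golm1, which encodes GP73, had 1 probe, well above background on 0 of the 9 arrays, and did not check the labels. The 7 hepatocyte markers on the array were all detected in AAV-V and AAV-GP73 and 6 of them on every AAV-V HFD array. Their summed scaled signal was 7306 to 8953 in AAV-V, 6986 to 9050 in AAV-GP73 and 3830 to 6273 in AAV-V HFD.

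Of the 25 probes, 15 were well above background on no array and 1, for Dgat2, on all 9. Of all 56605 non-control probes, 45266 were well above background on no array and 2667 on all 9. Tested were the 8 probes that were well above background on every array of at least 1 group, as 6591 of all 56605 were. The 8 probes stand for 6 of the 10 genes: Agpat2, Agpat3, Lpin2, Dgat2, Gpd1 and Mgll. Only the Dgat2 probe was detected throughout AAV-V. The others passed through a treated group, so that their p-values against AAV-V carry this selection. The 1 probe of Dgat1, which shares the last step with Dgat2, and the 3 probes of Mogat1 were detected on no array. One Gpam probe was detected on 2 AAV-GP73 and 2 AAV-V HFD arrays and on no AAV-V array. One Lpin1 probe was detected on 2 AAV-V, 2 AAV-GP73 and 1 AAV-V HFD arrays. Below background the values were not comparable between groups: the group means of the 15 undetected probes lay between 1.56 and 3.19 in AAV-V, between -0.12 and 1.35 in AAV-GP73 and between 0.19 and 1.13 in AAV-V HFD.

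**Figure D1:**
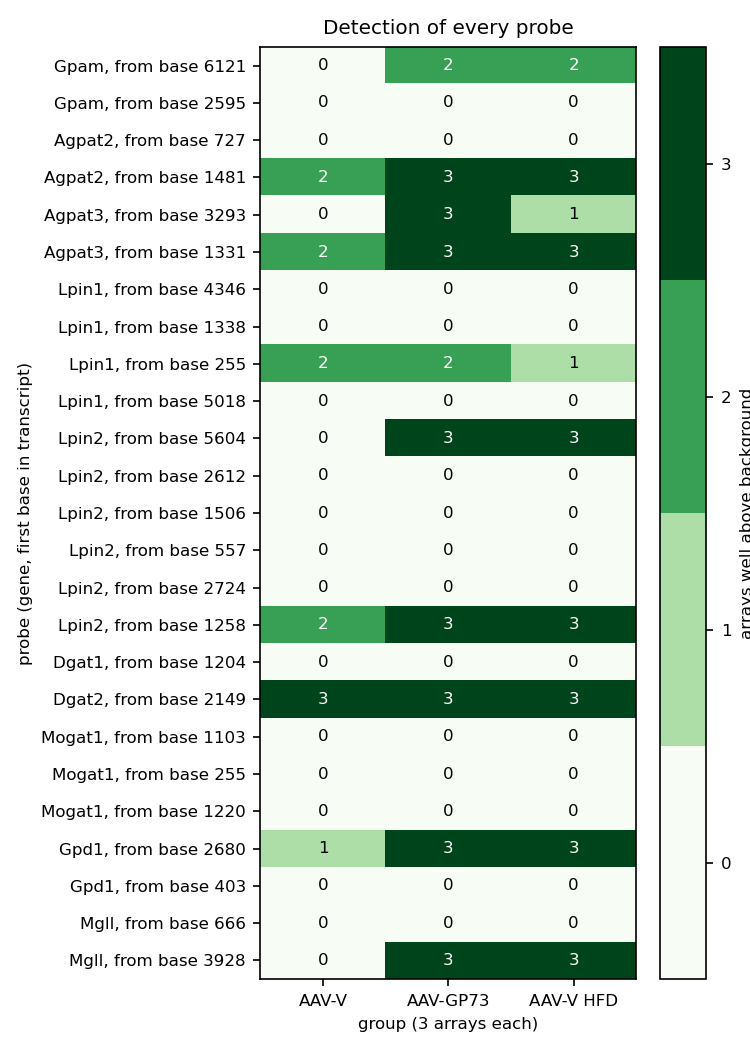
Each row is 1 of the 25 probes, named by its gene and by the base of the transcript at which the probe starts, and each column is a group of 3 arrays. The number and the shade give the arrays on which the probe was well above background, and the Dgat2 row holds the 1 probe that reached 3 in every group.

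Some genes were detected by 1 of their probes and missed by another, so the sequences of the probes that the results rest on are given here. Positions refer to mm9 as printed in the scanner output, which names no exon or untranslated region. The Lpin2 probe that begins at base 1258 of its transcript (chr17:71580723-71580782, plus strand) is called the interior probe below, and the one that begins at base 5604 (chr17:71598998-71599057, plus strand) the distal probe. The Lpin1 probe begins at base 255 (chr12:16587593-16587652, minus strand), the Gpd1 probe at base 2680 (chr15:99555334-99555393, plus strand) and the Mgll probe at base 3928 (chr6:88778292-88778351, plus strand). The interior Lpin2 and the Lpin1 probe are shown whole, with 1 and 2 reading frames free of stop codons, and of the others 30 bases are shown. The capitals in the Mgll probe mark the hexamer AATAAA, the usual polyadenylation signal.
Lpin2 interior probe, bases 1 to 60: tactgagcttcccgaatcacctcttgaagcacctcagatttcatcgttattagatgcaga
Lpin2 distal probe, bases 1 to 30: agtgccactaagcagctttaagttgtccgt
Lpin1 probe, bases 1 to 60: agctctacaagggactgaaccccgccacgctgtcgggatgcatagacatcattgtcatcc
Gpd1 probe, bases 1 to 30: acagattccaacaccttaacctatgtttgc
Mgll probe, bases 31 to 60: ctcaccgtAATAAAaaccacgtgcttttgg

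The entry enzyme Gpd1 and the hydrolase Mgll were higher than in AAV-V livers in both treated groups. The scaled Gpd1 signal was 3.20, 4.57 and 3.23 on the AAV-V arrays, 6.28, 7.57 and 7.45 on the AAV-GP73 arrays, and 7.13, 6.66 and 5.71 on the AAV-V HFD arrays. Every treated array lay above every AAV-V array, and the AAV-GP73 and AAV-V HFD arrays overlapped. Gpd1 rose by 3.43 ± 0.49 (SE) on the log2 scale in AAV-GP73 (limma, adjusted p = 0.000194) and by 2.83 ± 0.49 in AAV-V HFD (adjusted p = 0.00103). Only 1 of the 3 AAV-V arrays was well above background for Gpd1. With the other AAV-V arrays set to their detection limit, the differences were 3.01 and 2.41, or 8.04-fold and 5.30-fold. Gpd1 in AAV-GP73 and AAV-V HFD differed by 0.60 (95% interval -0.47 to 1.67, adjusted p = 0.588). With normexp background correction and its offset of 50, both Gpd1 calls were lost, at 0.96 (limma, adjusted p = 0.00351, under the 2-fold threshold) and 0.50 (adjusted p = 0.0623). The other Gpd1 probe, from base 403, was detected on no array.

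The scaled Mgll signal was 2.31, 1.65 and 2.52 on the AAV-V arrays, of which none was well above background. The signal was 5.31, 5.64 and 5.80 on the AAV-GP73 arrays and 4.80, 5.20 and 3.27 on the AAV-V HFD arrays, all detected. The groups did not overlap, and the lowest AAV-V HFD array lay well under its 2 companions. Since AAV-V gives only an upper limit, Mgll was at least 3.30-fold higher in AAV-GP73 (limma, adjusted p = 0.000143) and at least 1.48-fold higher in AAV-V HFD (adjusted p = 0.00204). For such a bound each AAV-V array stands at its detection limit, or at its own reading if that is higher. Mgll was 1.16 ± 0.45 (SE) log2 units higher in AAV-GP73 than in AAV-V HFD, which did not pass the threshold (95% interval 0.18 to 2.14, adjusted p = 0.214). Both Mgll calls were lost with the same normexp correction, at 0.08 in AAV-GP73 (limma, adjusted p = 0.711) and -0.38 in AAV-V HFD (adjusted p = 0.0723), and the call in AAV-V HFD was also lost by the methods' t-test after adjustment (adjusted p = 0.0677). The Mgll probe from base 666 was detected on no array. Mgll is also strongly expressed in fat, and of the 7 adipocyte markers Adipoq, Lep, Plin1 and Retn were detected on no array of any group. Cidec, a lipid droplet protein, was detected on 0 AAV-V, 1 AAV-GP73 and 2 AAV-V HFD arrays, and Cfd on 1 AAV-V HFD array. The summed signal of the 1 adipocyte marker tested, Car3, was 111 to 139 in AAV-V, 63.5 to 288 in AAV-GP73 and 19.1 to 744 in AAV-V HFD. In whole liver, fewer cells of a type and less RNA per cell cannot be told apart.

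The phosphatase Lpin2 rose in AAV-GP73 by both of its detected probes. The distal probe read 3.57, 2.54 and 3.37 on the AAV-V arrays, all below background, 4.66, 4.94 and 5.01 on the AAV-GP73 arrays, and 3.14, 4.46 and 3.91 on the AAV-V HFD arrays. All AAV-GP73 arrays lay above both other groups, and AAV-V and AAV-V HFD overlapped. By this probe Lpin2 was at least 2.02-fold higher in AAV-GP73 than in AAV-V (limma, adjusted p = 0.00227). With normexp correction the value was -0.33 and no call (adjusted p = 0.166). In AAV-V HFD the level lay under the detection limit of the AAV-V arrays, so that no fold can be given, and the difference did not pass (adjusted p = 0.147).

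The interior Lpin2 probe read 3.44, 5.39 and 6.43 on the AAV-V arrays, 6.55, 6.69 and 6.97 on the AAV-GP73 arrays, and 4.64, 3.82 and 3.47 on the AAV-V HFD arrays. The AAV-V arrays spread over most of this range and the first of them was below background, while the AAV-GP73 and AAV-V HFD arrays were clearly apart. The signal rose by 1.65 ± 0.60 (SE) on the log2 scale in AAV-GP73 (limma, adjusted p = 0.0321). Without AAV-V replicate 1 the value fell to 0.82 and the call was lost (adjusted p = 0.106). Without AAV-GP73 replicate 1, 2 or 3 the value stayed near 1.65, at 1.74, 1.67 and 1.53, and the call was lost as well (adjusted p = 0.0593, 0.0693 and 0.0891). It was also lost under quantile normalization (1.53, adjusted p = 0.0623) with the authors' log2 values (1.50, adjusted p = 0.114) with normexp correction (0.31, adjusted p = 0.186) and by the methods' t-test (adjusted p = 0.191). In AAV-V HFD the value was -1.11 ± 0.60, which did not pass (adjusted p = 0.135). It passed without AAV-V replicate 1 (-1.94, adjusted p = 0.0040) and with normexp correction (-1.01, adjusted p = 0.00102).

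Against each other, AAV-GP73 was 2.76 ± 0.60 (SE) log2 units above AAV-V HFD by the interior Lpin2 probe (limma, adjusted p = 0.0329), with all 3 AAV-GP73 arrays above all 3 AAV-V HFD arrays. The distal probe gave 1.04 ± 0.38, with no overlap either, and did not pass (95% interval 0.22 to 1.85, adjusted p = 0.185). The call by the interior probe was lost without any 1 of the AAV-GP73 arrays or without AAV-V HFD replicate 2 or 3, where the values were 2.51 to 2.86 and the adjusted p 0.0745 to 0.156. It was also lost under quantile normalization (adjusted p = 0.110), with the authors' log2 values (0.171), without a filter on dim probes (0.0978), with the replicate number as a block (0.0537) and by the methods' t-test after adjustment (0.117). The changes by the 2 probes differed by 1.73 for AAV-GP73 against AAV-V HFD (two-sided exact permutation test, n = 3, p = 0.10, the smallest that 3 against 3 arrays allow). This difference between probes was examined after the values had been seen. AAV-V allows no such comparison, since the distal probe was below background on all of its arrays. The other 4 Lpin2 probes, of which 3 are annotated to other transcripts of the gene in Ensembl, were detected on no array.

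The acyltransferases Agpat2 and Agpat3, which make phosphatidate, gave 1 call, for Agpat2 in AAV-GP73. Agpat2 read 4.42, 4.69 and 3.60 on the AAV-V arrays, 5.31, 5.38 and 5.13 on the AAV-GP73 arrays, and 5.39, 4.85 and 4.33 on the AAV-V HFD arrays. The AAV-GP73 arrays lay above all AAV-V arrays, of which the third was below background, and the AAV-V HFD arrays overlapped with both. Agpat2 rose by 1.03 ± 0.35 (SE) on the log2 scale in AAV-GP73 (limma, adjusted p = 0.0243), close to the 2-fold threshold, and was 0.62 ± 0.35 in AAV-V HFD (adjusted p = 0.156). With AAV-V replicate 3 set to its detection limit, the difference in AAV-GP73 was 0.92, or 1.89-fold, under that threshold. The call in AAV-GP73 was lost without AAV-V replicate 3 (0.72, adjusted p = 0.0989), without AAV-GP73 replicate 1 or 2 (1.01 and 0.98, adjusted p = 0.0594 and 0.0725) with scaling by the median of detected probes (0.92), with normexp correction (-0.35, adjusted p = 0.117) and by the methods' t-test after adjustment (adjusted p = 0.0699). Relative to the median change of all tested probes, the Agpat2 difference was 0.40.

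The Agpat3 probe from base 1331 read 4.95, 4.66 and 3.47 on the AAV-V arrays, 5.01, 5.20 and 4.88 on the AAV-GP73 arrays, and 4.77, 4.64 and 5.25 on the AAV-V HFD arrays. The lowest AAV-V array, which was below background, lay apart from the rest, and both comparisons overlapped. The differences from AAV-V were 0.67 ± 0.37 (SE) in AAV-GP73 (limma, adjusted p = 0.132) and 0.53 ± 0.37 in AAV-V HFD (adjusted p = 0.245). The Agpat3 probe from base 3293 was detected on 0 AAV-V, 3 AAV-GP73 and 1 AAV-V HFD arrays, with overlapping values and no call in any comparison.

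Dgat2, which adds the last fatty acid, was the 1 gene of the group measured above background on all 9 arrays. It read 4.85, 5.34 and 5.05 on the AAV-V arrays, 4.29, 5.26 and 4.70 on the AAV-GP73 arrays, and 6.07, 5.89 and 5.16 on the AAV-V HFD arrays. The highest values were those of 2 AAV-V HFD arrays and the lowest those of 2 AAV-GP73 arrays, with overlap in every comparison. The difference from AAV-V was -0.33 (95% interval -1.07 to 0.40, limma, adjusted p = 0.403) in AAV-GP73 and 0.63 (-0.11 to 1.36, adjusted p = 0.135) in AAV-V HFD. AAV-GP73 and AAV-V HFD differed by -0.96 (-1.70 to -0.22), which did not pass (limma, adjusted p = 0.174). Sign and call of Dgat2 depended on the processing. In AAV-GP73 the spike-in controls gave 1.35, a call (limma, adjusted p = 0.00578), and the 75th percentile of all probes gave 0.66 (0.136). Normexp correction gave -0.63 (0.0139), under the 2-fold threshold. In AAV-V HFD, Dgat2 was called higher with all probes (1.58, 0.00308) and with the spike-in controls (1.96, 0.000611), while normexp gave -0.25 (0.254). Quantile normalization, the median of detected probes and the authors' log2 values gave no call in either group. After subtraction of the median change over tested probes, Dgat2 in AAV-GP73 lay at -0.97. The probes most like Dgat2 over the 9 arrays, among 1876 others detected on all of them, were those of Ebpl (Pearson r = 0.787) and of Tef (r = 0.786), given as a description.

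Gpam and Lpin1 were measured but not tested. Gpam, which catalyses the first acylation, read 3.28, 1.72 and 2.86 on the AAV-V arrays, 2.30, 3.17 and 3.66 on the AAV-GP73 arrays, and 2.99, 3.54 and 3.04 on the AAV-V HFD arrays. The 3 groups overlapped. Lpin1, a phosphatidate phosphatase that also acts in the nucleus as a coactivator, read 3.30, 4.39 and 4.17 on the AAV-V arrays, 2.79, 2.46 and 2.41 on the AAV-GP73 arrays, and 2.46, 1.73 and 2.03 on the AAV-V HFD arrays. All AAV-V values of this Lpin1 probe lay above all others, in groups where it was below background on 1 AAV-V, 1 AAV-GP73 and 2 AAV-V HFD arrays. This order held under quantile normalization, the median of detected probes and the authors' log2 values, but the groups overlapped with the 75th percentile of all probes and with the spike-in controls, where the difference of AAV-GP73 from AAV-V turned from -1.40 to 0.29. The other 3 Lpin1 probes were detected on no array.

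**Figure D2:**
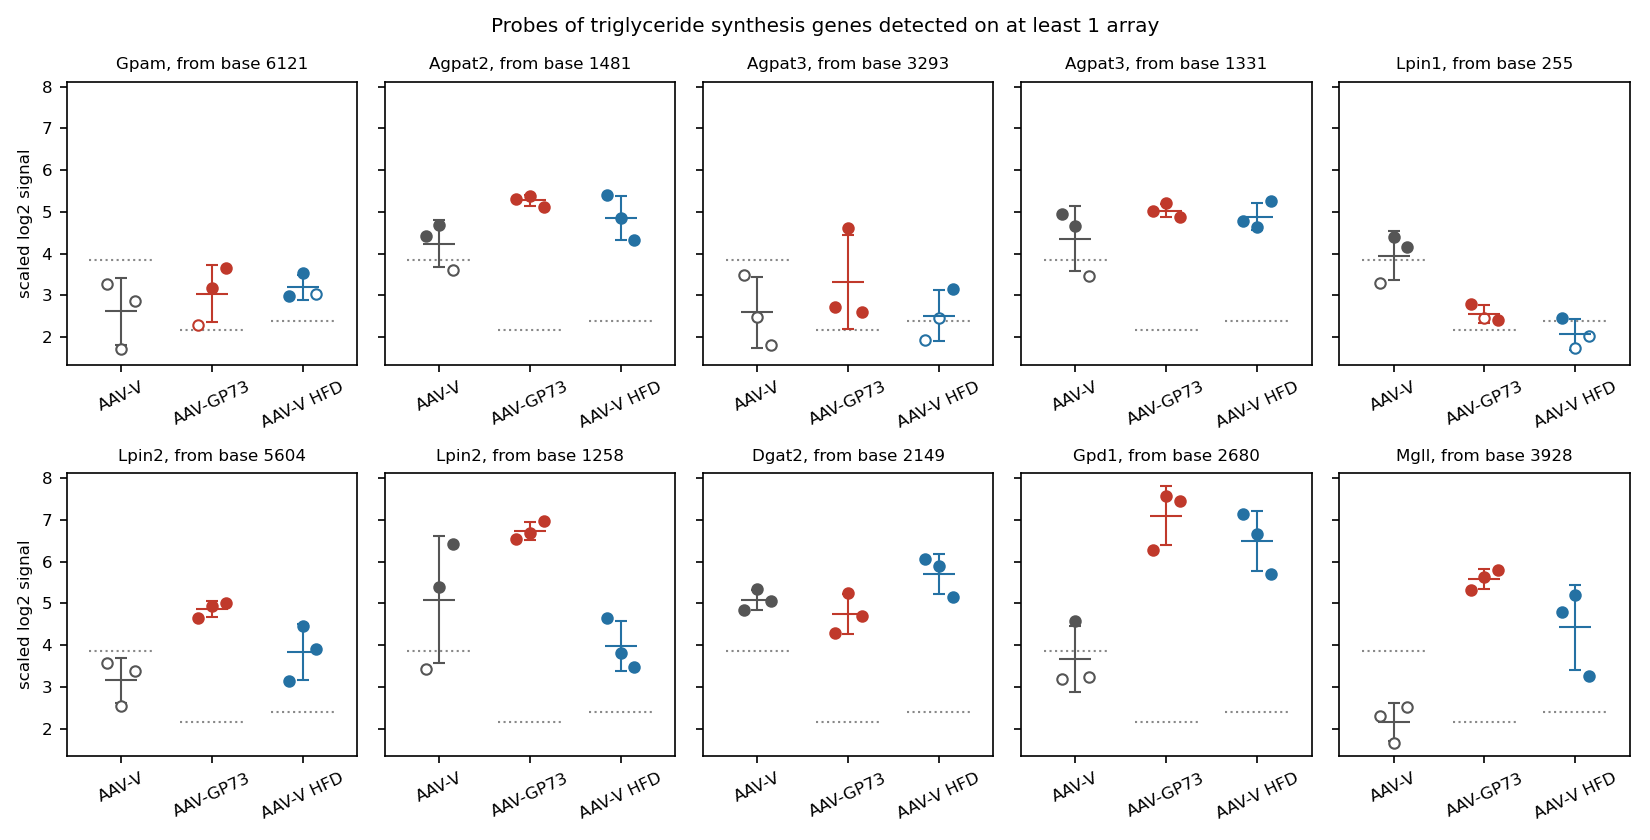
Each panel is a probe detected on at least 1 array, the vertical axis is the scaled log2 signal, and each point is 1 array, filled where it was well above background and open where it was not. Horizontal marks and bars are the mean and SD of 3 arrays and dotted lines the group's mean lowest signal well above background. In the Gpd1 and Mgll panels every AAV-GP73 and AAV-V HFD array lies above every AAV-V array.

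Counted over the group, AAV-GP73 against AAV-V had 5 calls among the 8 tested probes, all of them higher: Gpd1, Mgll, both Lpin2 probes and Agpat2. A call is a fold change of at least 2 with an adjusted p under 0.05 in the limma fit. Of all 6591 probes tested, 51.8% were called in this comparison, 33.9% higher and 17.9% lower. The median log2 fold change was 1.34 over the 8 probes and 0.64 over all tested probes. In AAV-V HFD against AAV-V, 2 of the 8 probes were called, Gpd1 and Mgll, both higher, where 42% of all tested probes were called, 25% higher and 16.9% lower. The medians were 0.62 and 0.41. In AAV-GP73 against AAV-V HFD, 1 of 8 was called, the interior Lpin2 probe, where 2.67% of all tested probes were called, 2.08% higher and 0.592% lower, and the medians were 0.70 and 0.10. All of the 8 probes but that of Dgat2 passed the filter only through treated groups. These counts and medians are therefore descriptions, and the p-values against AAV-V carry that selection. The Agpat3 probe from base 3293 passed only through AAV-GP73, and its values overlapped with those of AAV-V, which were all below background. What the filter contributed to the differences of the other probes was not tested. The first 2 comparisons share the AAV-V arrays.

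**Figure D3:**
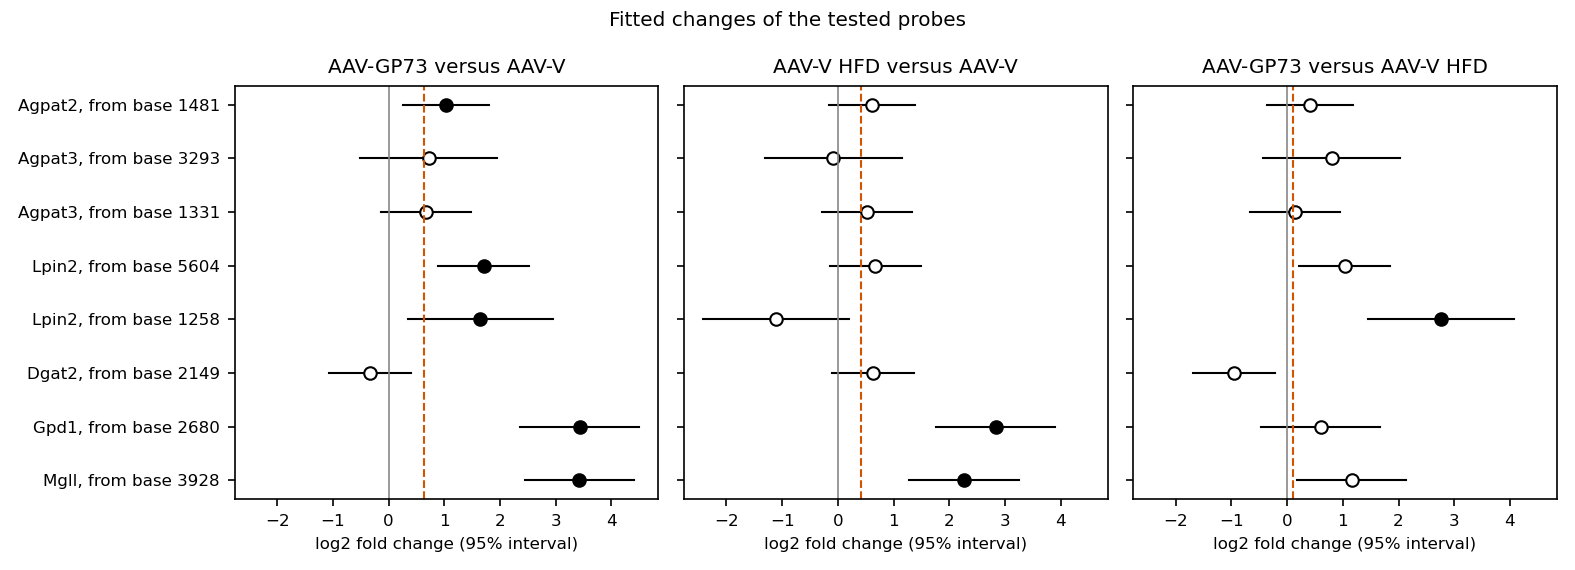
Points are the fitted log2 fold changes of the 8 tested probes, named by gene and first base in the transcript, with lines for the 95% interval, in the 3 comparisons. Filled points were called, the grey line is 0 and the dashed line is the median of all tested probes (0.64, 0.41 and 0.10). The intervals of Gpd1 and Mgll lie to the right of both lines in the first 2 panels.

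How the arrays are scaled moved all of these values together. The median of all tested probes in AAV-GP73 against AAV-V was 0.64 here, 1.63 with the 75th percentile of all non-control probes, 2.32 with the spike-in controls and -0.11 over the 2667 probes detected on all arrays. The share of called probes that were higher was 65.4% here, 91.3% with all probes, 98.2% with the spike-in controls and 34.3% over probes detected on all arrays. With normexp correction the medians of the 2 comparisons with AAV-V were -0.58 (AAV-GP73) and -0.74 (HFD), and 17% and 8.28% of called probes were higher. For AAV-V HFD against AAV-V the same shares were 59.6%, 95.2%, 98.2% and 29.2%, with 71.5% under quantile normalization. Relative to the median, Gpd1 lay at 2.80 under GP73 and 2.43 under HFD and Mgll at 2.78 and 1.86, the sizes of the Mgll values being fitted through arrays without detection. The distal and interior Lpin2 probes lay at 1.07 and 1.01 in AAV-GP73.

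**Figure D4:**
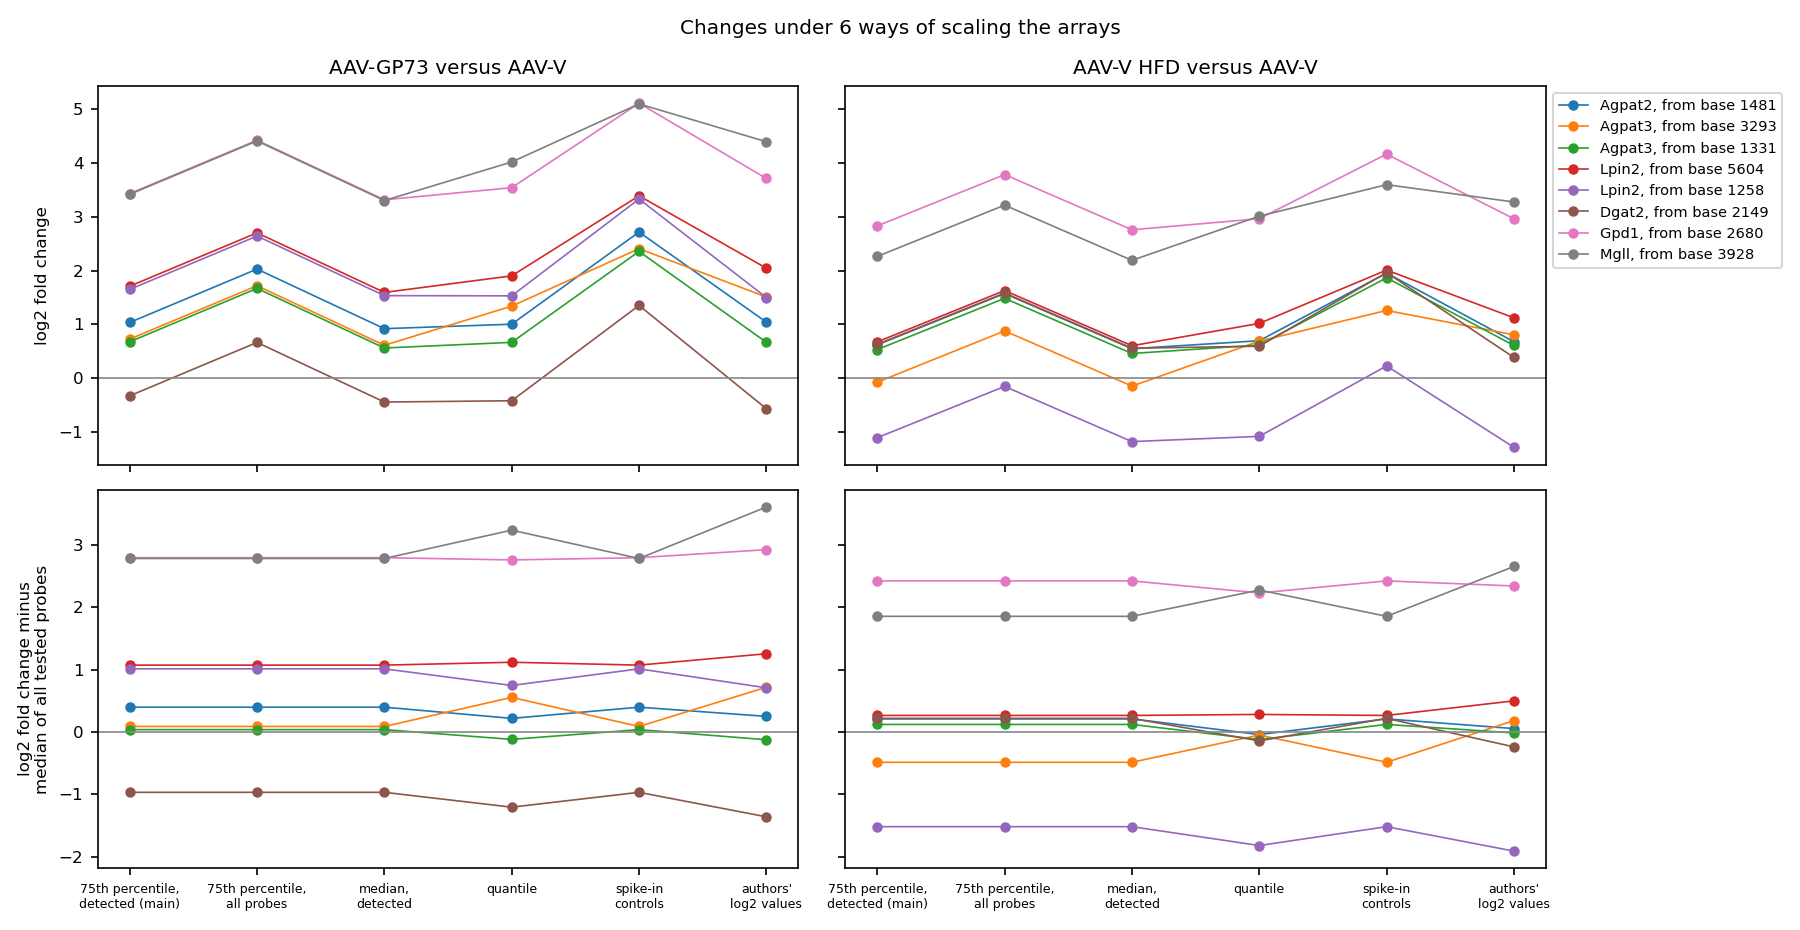
Lines follow the 8 tested probes through 6 ways of scaling the arrays, for AAV-GP73 (left) and AAV-V HFD (right) against AAV-V. The upper panels give the log2 fold change and the lower panels the same after subtraction of the median of all tested probes. Gpd1 and Mgll keep the highest positions in all 4 panels, while Dgat2 crosses 0 in the upper left panel.

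Promoter sequences of RefSeq (GRCm38.p6) were available for 11 starts of 7 of the 10 genes: Agpat2, Agpat3, Gpam, Lpin1, Lpin2, Mgll and Mogat1. In the 250 bases before each start, 2 motifs were looked for on both strands. The E-box CACGTG, which reads the same on both strands and is bound by factors such as Usf1 and Srebf1, was found in 2 of the 11, for Lpin2 and Mgll, and in 6.02% of all 32851 promoters. The nuclear receptor half-site AGGTCA was found in 2 of the 11, for Gpam and Lpin1, and in 14.0% of all promoters. The Lpin2 and Mgll windows are shown because both genes were called and both hold an E-box, printed in capitals. Each window belongs to the start furthest upstream, of 3 for Lpin2 and 2 for Mgll, and the other starts of both had no E-box. A match is a string of letters and no sign of binding. The windows shown lie at chr17:71183282-71183531 and chr6:88724162-88724411, both on the plus strand.
Lpin2 promoter: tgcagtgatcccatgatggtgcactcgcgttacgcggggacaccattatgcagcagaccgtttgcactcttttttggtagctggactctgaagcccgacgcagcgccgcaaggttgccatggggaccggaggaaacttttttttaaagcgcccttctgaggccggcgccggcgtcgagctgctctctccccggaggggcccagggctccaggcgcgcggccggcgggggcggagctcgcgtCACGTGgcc
Mgll promoter: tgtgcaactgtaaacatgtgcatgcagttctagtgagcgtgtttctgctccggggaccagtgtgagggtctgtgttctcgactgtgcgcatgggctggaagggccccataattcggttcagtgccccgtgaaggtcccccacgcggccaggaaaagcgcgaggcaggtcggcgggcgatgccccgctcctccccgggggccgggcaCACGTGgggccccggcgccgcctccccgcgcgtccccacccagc

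The neighbouring genes of the pathway were counted by their brightest probe, against 52.6%, 43% and 2.57% of 5761 gene names called in AAV-GP73 against AAV-V, AAV-V HFD against AAV-V and AAV-GP73 against AAV-V HFD. The shares called higher were 33.2%, 24.8% and 1.98%, and those called lower 19.4%, 18.2% and 0.59%. Genes not detected throughout AAV-V passed the filter through a treated group, and their p-values against AAV-V carry that selection. Of 7 genes of glycerol entry on the array 3 were tested, of which 2 were higher and 1 was lower in AAV-GP73. In AAV-V HFD 1 was higher and 1 lower. The glycerol channel Aqp7 read 4.40 to 5.21 in AAV-V, 0.76 to 2.89 in AAV-GP73 and 2.44 to 3.43 in AAV-V HFD, detected on 3, 1 and 2 arrays. Aqp7 fell in both (limma, adjusted p = 0.000373 and 0.00635). With undetected arrays at their detection limit or their own reading, whichever was higher, the differences were -2.37 and -1.94. Both stayed below 0 under the 5 other scalings, and AAV-V HFD and AAV-V overlapped with the spike-in controls. The liver glycerol channel Aqp9 was below background in AAV-V. It exceeded this limit by at least 1.36-fold in AAV-GP73 (adjusted p = 0.00986) and by at least 1.34-fold in AAV-V HFD (adjusted p = 0.0131). Glycerol kinase, Gyk, was detected on all AAV-GP73 arrays (3.20 to 3.81) and on no other. It was called against AAV-V, but its level lay under the AAV-V detection limit, so that no fold can be given there.

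Of 13 other acyltransferases and phosphatases of the pathway 3 were tested, and 3, 2 and 0 were called higher in the 3 comparisons, with none lower. Agpat6, which catalyses the first acylation in the endoplasmic reticulum, rose by 1.36 ± 0.37 (SE) in AAV-GP73 (limma, adjusted p = 0.00811), with 3 arrays detected against 1. With the undetected AAV-V arrays at their limit, the Agpat6 difference was 0.84, or 1.78-fold, under the 2-fold threshold. Lpgat1 and Ppap2c were called in both treated groups, at levels under the AAV-V detection limit. Of 21 genes that use diacylglycerol or phosphatidate for other lipids 6 were tested, and 2, 3 and 0 were called higher. Pcyt2, of the phosphatidylethanolamine branch, was detected on all 9 arrays and read 4.62 to 5.09 in AAV-V, 6.37 to 7.04 in AAV-GP73 and 6.53 to 6.65 in AAV-V HFD. Neither treated group overlapped with AAV-V, and Pcyt2 rose by 1.89 ± 0.28 (SE, adjusted p = 0.000220) and 1.70 ± 0.28 (adjusted p = 0.000801). Etnk2, of the same branch, was at least 1.44-fold higher in AAV-V HFD (adjusted p = 0.0161). Pcyt1a, of the phosphatidylcholine branch, was called in both groups at levels under the AAV-V detection limit.

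Of 10 genes of glyceride hydrolysis 2 were tested, the triglyceride lipase Pnpla2 and its inhibitor G0s2. Against AAV-V both were called in AAV-GP73, as higher, and neither in AAV-V HFD, at levels of 3.37 to 3.57 and 3.33 to 3.65 in AAV-GP73 that lay under the AAV-V detection limit. Of 14 regulators 8 were tested, and AAV-GP73 had 5 higher and 2 lower, while AAV-V HFD had 3 higher and 1 lower. The oxysterol receptor Nr1h3 was at least 2.01-fold higher in AAV-GP73 (limma, adjusted p = 0.000441) and at least 2.12-fold higher in AAV-V HFD (adjusted p = 0.000732). Ppara, a receptor that drives fatty acid oxidation, was at least 2.16-fold (adjusted p = 0.00855) and at least 1.81-fold higher (adjusted p = 0.0215). These bounds are for group means, and the Ppara values in AAV-V HFD (3.60 to 5.52) overlapped with those in AAV-V (2.55 to 4.10). Nr3c1, the glucocorticoid receptor, was at least 1.29-fold higher in the GP73 livers (adjusted p = 0.0134), as was Insig2, which retains Srebf1 in the endoplasmic reticulum, by at least 1.21-fold (adjusted p = 0.000158). Nr1h2, the second oxysterol receptor, was detected on all 9 arrays and read 6.17 to 7.15 in AAV-V, 5.02 to 5.37 in AAV-GP73 and 4.97 to 5.52 in AAV-V HFD. It fell by 1.38 (adjusted p = 0.00273) and by 1.31 (adjusted p = 0.00514) on the log2 scale, a direction that flipped with the spike-in controls (0.31 and 0.03), while with the 75th percentile of all probes the differences were -0.38 and -0.35 and the groups overlapped. Relative to the median of all tested probes, which the scaling moves as well, Nr1h2 lay at -2.01 and -1.72. Cebpa was called higher in AAV-V HFD and AAV-GP73 at levels under the AAV-V detection limit. Srebf1, which drives lipid synthesis genes, was called lower in AAV-GP73 against AAV-V although it was below background on all arrays of both groups, so that no direction can be given there.

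**Figure D5:**
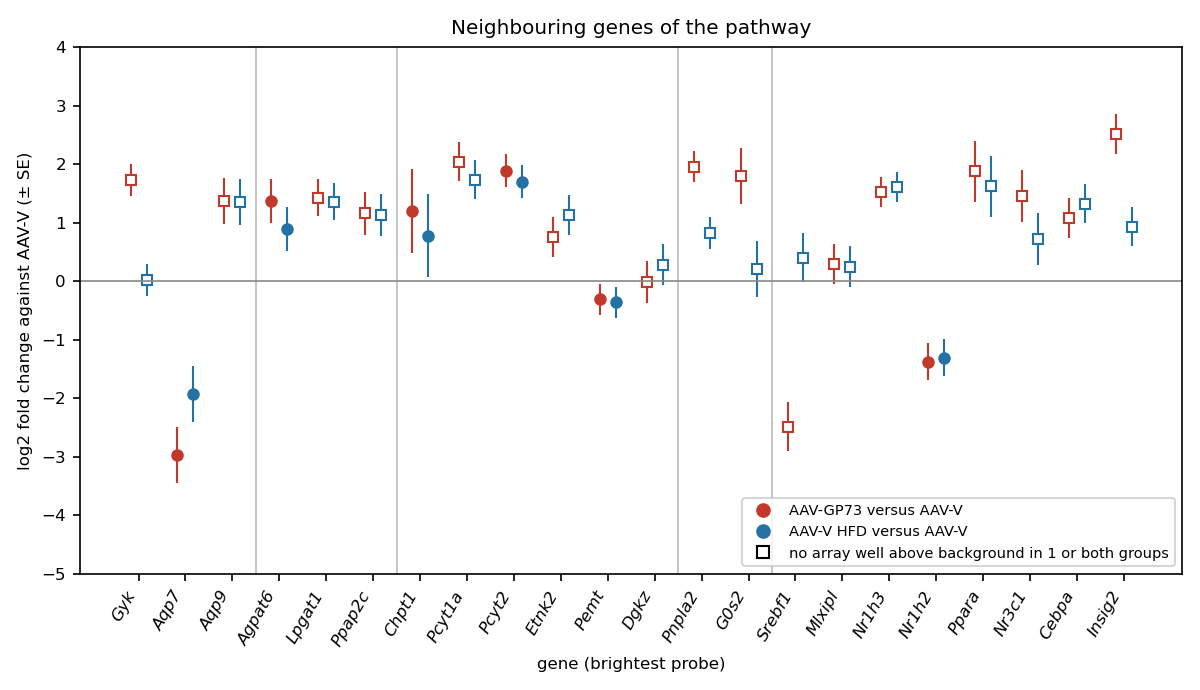
Log2 fold changes against AAV-V (± SE) of the 22 tested neighbouring genes, by brightest probe, for AAV-GP73 and AAV-V HFD. Filled circles are genes detected on at least 1 array of both groups and open squares genes with no detected array in 1 or both groups, whose plotted sizes are fitted through undetected arrays. Pcyt2 and Nr1h2, detected on all 9 arrays, lie on opposite sides of 0 with this scaling, while with the spike-in controls Nr1h2 lay at 0.31 and 0.03.

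Markers of other cells were summed by group, with undetected readings included. The 4 erythroid markers tested, of 5 on the array, summed to 371 to 906 in AAV-V, 3308 to 16590 in AAV-GP73 and 612 to 1081 in AAV-V HFD, with Hbb-b1 undetected in AAV-V and AAV-V HFD. The 3 macrophage markers tested, Clec4f, Csf1r and Marco, of 6 on the array, summed to 29.0 to 36.6, 52.5 to 72.8 and 38.0 to 84.7. In AAV-V, Clec4f and Csf1r were detected on no array and Marco on 1, while all 3 were detected on every treated array. The AAV-V sums thus rest largely on undetected readings. Of the stellate markers 1 of 5 was tested, Des, which was detected on all arrays. Its scaled signal was 64.3 to 196.9 in AAV-V, 12.0 to 41.9 in AAV-GP73 and 15.0 to 32.0 in AAV-V HFD. Both treated groups lay below AAV-V for Des. Col3a1 went the other way in detection, on 0 AAV-V, 1 AAV-GP73 and 2 AAV-V HFD arrays, and Lrat, Pdgfrb and Col1a1 were detected on none. Of the cholangiocyte, endothelial and lymphocyte markers none passed the detection filter. The part of any of these in the values of Gpd1, Mgll, Lpin2 and Agpat2 was not tested.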

How the data were processed

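Cy3-labelled liver RNA of 9 samples was measured. The deposited intensity values come from Feature Extraction (12.0.3.1 per the file headers, 10.7 per the submitters' processing notes), detrended within each array and not scaled between arrays. A log2 table deposited by the authors holds the same arrays. Its columns have nearly the same range (lowest value 0.445 to 0.447, highest 16.6), and its normalization is not given in the sources used here. Depth does not apply to arrays, and 3 per group limit the precision.

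Processed signals were taken to log2 and each array was shifted to a common 75th percentile of the 2667 probes well above background on all 9 arrays, since under 1 in 5 spots were detected. Spots of a probe were averaged and flagged outliers left out. Probes had to be detected throughout at least 1 group, and the 6591 that were entered a fit in limma 3.58.1 (R 4.3.3, lmFit and eBayes, 3 group means), with Benjamini-Hochberg adjustment over all of them. Adjusted p-values are from this fit. Figures were drawn with matplotlib 3.10.9. The limma fit alone was run on simulated arrays with known changes, built from values already scaled and filtered. Scaling, spot averaging, the detection filter and the detection limits were not simulated.

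The genes, lists and motifs were chosen with earlier results of these data known. Named were all 10 genes and, of each list, at most 8 genes with a called brightest probe. Replicate numbers did not pair the arrays: residuals correlated at -0.105 to 0.167, over 0.1 in 2 of 9 pairs. Alternatives were other scalings, normexp with an offset of 50, other filters, 1 probe per gene, the methods' t-test, other fits, and leaving out each array.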

Additional observations from a re-analysis of the deposited data

Results flagged for a closer look

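The interior Lpin2 probe differed between the treated groups by the direct test, with AAV-GP73 2.76 log2 units above AAV-V HFD (limma, adjusted p = 0.0329, higher in 3 of 3 arrays). Over the alternatives that gave a value, its adjusted p lay between 0.00165 and 0.171.

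Of the 22 neighbouring genes tested, 4 were called between the treated groups, 3 higher and 1 lower in AAV-GP73. Of 5761 gene names by brightest probe, 2.57% were called in this comparison, 1.98% higher and 0.59% lower. All 4 neighbouring genes were detected throughout only 1 group and passed the detection filter through the group where they were brighter. Their p-values carry that selection. Gyk was at least 2.12-fold higher in AAV-GP73 than in AAV-V HFD (limma, adjusted p = 0.00838), where no array was detected and the fitted difference of 1.71 rests on undetected values. Insig2 was 1.58 higher (adjusted p = 0.0303), with 3 arrays detected against 2, or 1.30 with the undetected array at its limit. Pnpla2 was 1.13 higher (adjusted p = 0.0491), with 3 arrays detected against 1, or 1.04 with the undetected arrays at their limit, and 0.92 under quantile normalization, under the 2-fold threshold. Srebf1 had a fitted difference of -2.89. The bound for AAV-GP73 was at least 1.98-fold lower, since it was below background on all arrays (adjusted p = 0.00513). It was detected on all 3 AAV-V HFD arrays. The AAV-V HFD arrays lay on a slide of their own, so that group and slide cannot be told apart. Groups of 3 arrays are too small for a test of single outlying arrays.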

How the results depend on the processing

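The AAV-GP73 against AAV-V count of 5 called probes was 8 with the spike-in controls, where 5215 of all 6591 tested probes were called. It was 0 with normexp, where 893 of 6591 were called. With normexp 3 probes had an unadjusted limma p under 0.05: Gpd1, higher (0.96), and Dgat2 (-0.63) and the Agpat3 probe from base 3293 (-0.62), both lower. The normexp offset of 50 exceeds every group's mean processed signal for 3 of 8 probes. In AAV-V that mean lay at 2.35 to 24.0, under the offset for all 8. Without a filter the count was 18 of 25, where 47085 of 56605 were called. Of the 18, 13 were lower, 12 of these detected on no array and the other the Lpin1 probe. Over probes detected on all arrays it was 0 of 1 (0 unadjusted), where 1250 of 2667 were called. By the methods' t-test after adjustment it was 3 (4 before it), where 2718 of 6591 were called (3095 before). The AAV-V HFD count of 2 was 6 with the 75th percentile of all probes and 6 with the spike-in controls, where 4039 and 4512 of 6591 were called. It was 1 with normexp (the interior Lpin2 probe, lower, with Gpd1 and Mgll lost), where 966 of 6591 were called. Without a filter it was 17 of 25, where 45130 of 56605 were called. Of the 17, 15 were lower, 14 of these detected on no array and the other again Lpin1. Over probes detected on all arrays it was 0 of 1 (0 unadjusted), where 1086 of 2667 were called. By the methods' t-test after adjustment it was 1 (2 before), where 1695 of 6591 were called (2382 before). The AAV-GP73 against AAV-V HFD count of 1 was 0 with quantile normalization (2 at an unadjusted limma p under 0.05) and the authors' log2 values (2), where 48 and 27 of 6591 were called. It was also 0 with no filter (5) and over probes detected on all arrays (1), where 78 of 56605 and 71 of 2667 were called. By the methods' t-test after adjustment it was 0 (1 before), where 13 of 6591 were called. Leaving out single arrays gave 3 to 5, 2 to 3 and 0 to 1, where 3098 to 3515, 2401 to 2980 and 38 to 165 of 6591 were called.

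With the replicate number as a block, 5, 2 and 0 probes were called (4 at an unadjusted limma p under 0.05 in the last). Of all 6591 tested probes, 3413, 2779 and 124 were called. The interior Lpin2 probe moved to a limma adjusted p of 0.0537, and no other probe's call changed. A slide block could not be fitted.

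With normexp the median of all tested probes moved to -0.58 (AAV-GP73) and -0.74 (HFD), and signs turned in AAV-GP73 for Agpat2 (-0.35), Agpat3 (-0.62 and -0.33) and the distal Lpin2 probe (-0.33), and in AAV-V HFD for Agpat2 (-0.53), Agpat3 (-0.47), the distal Lpin2 probe (-0.74), Dgat2 (-0.25) and Mgll (-0.38). Dgat2 in AAV-GP73 was 0.66 with all probes and 1.35 with spike-ins. The Agpat3 probe from base 3293, at -0.08 in AAV-V HFD, was 0.88 with all probes, 0.69 with quantile normalization, 1.26 with spike-ins, 0.80 with the authors' values, 0.37 without AAV-V replicate 1 and 0.21 without AAV-V HFD replicate 1. The interior Lpin2 probe in AAV-V HFD was 0.22 with spike-ins. The distal Lpin2 probe in AAV-V HFD was called without AAV-V HFD replicate 1 (1.02). The causes were not tested. On no array were 15 of the 25 probes well above background, nor were 45266 of all 56605, and the AAV-V arrays had the highest detection limit.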
